A study of Papio hamadryas with 17 samples.

Results

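Kidney cortex biopsies of baboons differed in how much RNA of the thick ascending limb they held relative to RNA of the proximal tubule, and the libraries at the 2 ends of that range are compared here. The position of a library was read from UMOD, which encodes uromodulin, the main protein secreted by the thick limb, divided by SLC34A1, the sodium-phosphate cotransporter of the proximal tubule. Libraries with a UMOD/SLC34A1 ratio of 10 or more are called high-ratio (n = 5) and those with a ratio of 6 or less low-ratio (n = 5), together 10 of the 17 libraries. Another 4 libraries, all male, lay between, and 3 (female 1, female 2 and male 6) were left out because their signal of ACTA1, the actin of skeletal muscle, exceeded 10000. The groups were chosen by the measured signals of UMOD and SLC34A1, so these 2 genes are described without a test and left out of every count.

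The study took 1 biopsy from each of 8 female and 9 male Papio hamadryas by ultrasound guidance and froze it in liquid nitrogen, to compare gene networks of the kidney cortex between the sexes. Every animal had eaten a low-salt control chow lifelong, and no other treatment was given beyond ketamine, isoflurane and buprenorphine around the biopsy. The high-ratio group held female 3, female 4, female 5 and female 8, aged 19, 18, 18 and 15 in the labels, which give no unit, and male 1, aged 7. The low-ratio group held female 6 and female 7, aged 18 and 17, and male 4, male 7 and male 8, aged 7, 7 and 6. Replicate numbers follow the order of deposition. Sex, age and deposited table went together, so they cannot be told apart, and 4 of 5 high-ratio libraries were female against 2 of 5 low-ratio libraries. The medians of the main lists and the differences of the genes described in most detail are therefore given also with sex as a term in the fit or within the females alone.

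The nephron changes its transport programme along its length. The proximal tubule takes back most of the filtered sodium, phosphate, glucose, amino acids and small proteins, secretes organic anions and cations, and makes glucose. The thick ascending limb, which runs from medulla to cortex, reabsorbs salt through the cotransporter encoded by SLC12A1 and magnesium and calcium between its cells. The distal convoluted tubule takes up salt through SLC12A3, and the collecting duct holds principal cells, which move water through AQP2, and intercalated cells, which move acid and base. A biopsy contains these segments in whatever proportion the needle meets them, and in bulk RNA fewer cells of a type and less RNA per cell cannot be told apart.

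The values are signal, the deposited value of each transcript minus an offset of 1, summed per gene over the transcripts in both tables. UMOD signal was 11030, 7368, 4175, 7285 and 9625 in high-ratio female 3, female 4, female 5, female 8 and male 1, the order used below. It was 1669, 3821, 2640, 4649 and 4513 in low-ratio female 6, female 7, male 4, male 7 and male 8, again the order used below. SLC34A1 signal was 31.5, 334, 340, 268 and 556 in the high-ratio and 548, 745, 1214, 962 and 819 in the low-ratio libraries. Each gene by itself overlapped between the groups, UMOD through high-ratio female 5 and SLC34A1 through high-ratio male 1 and low-ratio female 6. Ratios were 349.7, 22.1, 12.3, 27.2 and 17.3 against 3.05, 5.13, 2.18, 4.83 and 5.51. Female 3 stood far above the other high-ratio libraries and had the lowest SLC34A1 signal. Nearest to the thresholds lay female 5 at 12.3 and male 5, not used, at 8.63 on the upper side, and male 8 at 5.51 and male 2, not used, at 6.43 on the lower side.

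**Figure D1:**
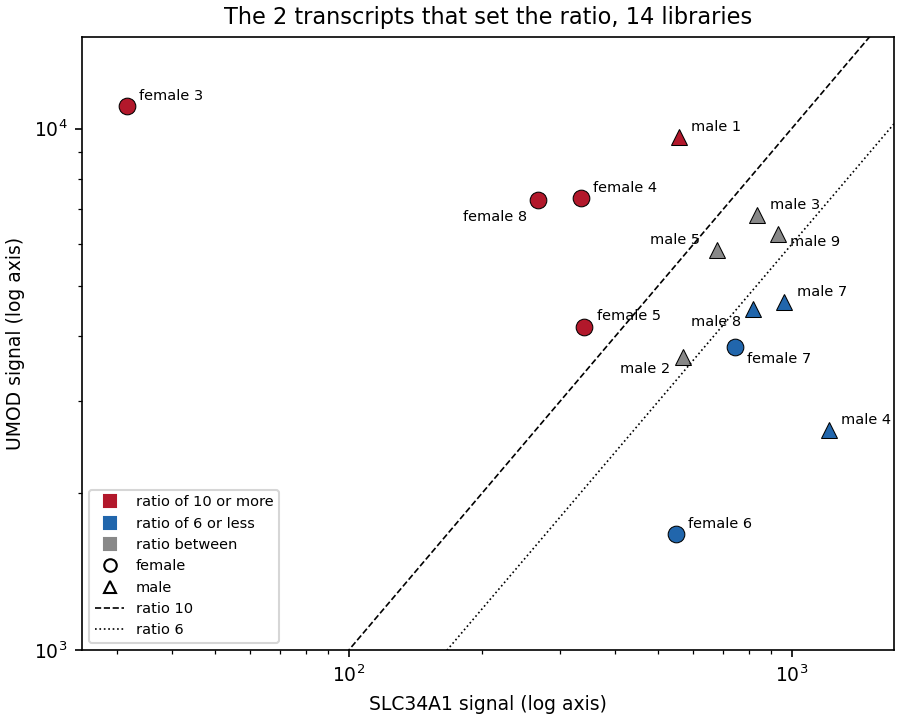
UMOD signal (vertical, log axis) against SLC34A1 signal (horizontal, log axis) in the 14 libraries that passed the ACTA1 limit, coloured by ratio group and shaped by sex, with lines at ratios of 10 and 6. Female 3 lies alone at the left with an SLC34A1 signal of 31.5, and male 1 is the high-ratio library nearest to the low-ratio libraries on the SLC34A1 axis, at 556.

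Libraries within a group were not alike. The summed signal over shared transcripts ranged from 255529 to 297309 in the high-ratio and from 285092 to 433540 in the low-ratio libraries; read totals are not part of the tables. Mitochondrial transcripts took 35.2% ± 10.6 (SD, n = 5) and 35.2% ± 7.42 (SD, n = 5) of it. ACTA1 signal was at most 3.26 in the 10 libraries. Female 6 listed 299 genes at 0, against 50 to 61 in the other low-ratio libraries. In female 3 the podocyte gene NPHS1, which encodes the slit diaphragm protein nephrin, was listed at 0, although the biopsy is labelled cortex, where glomeruli lie. In the other 5 females of the comparison NPHS1 ranged from 9.77 to 51.7, lowest in female 4. This gene was read in the female table alone. Female 3 and male 1 differed from the rest of their group, so list medians and the differences that moved most are also given without them.

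No gene passed the test between the groups. With limma on log2(signal + 1), 0 of 9332 genes (0%) had a Benjamini-Hochberg adjusted p under 0.05, and the lowest adjusted p was 0.108. An unadjusted p under 0.05 was reached by 1296 genes, of which 1041 had lower and 255 higher values in the high-ratio libraries. The median log2 difference of all genes, high-ratio minus low-ratio, was -0.12, and median scaling of the libraries moved it to 0.03. As a second description, genes were counted whose 2 groups did not overlap: 222 genes (2.38%) were lower in all 5 high-ratio libraries and 41 (0.439%) were higher. Median scaling gave 324 lower and 148 higher, and upper quartile scaling 249 and 201, so the split between directions depends on the scale. A minus sign below means lower in the high-ratio libraries, n is 5 against 5, SE is the standard error from limma, and every adjusted p is from limma.

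Proximal tubule genes were the group that parted the libraries most. Of 115 listed genes 93 were in both tables and 91 passed the filter on low signal. All 91 had a lower mean log2 level in the high-ratio libraries, beside 64.6% of all genes. Under median scaling 89 did, as CLCN5 and CPT1A turned, and under upper quartile scaling 88, as CTNS also turned. The median difference was -1.72, or -1.60 relative to the median of all genes, and members ranged from -3.40 to -0.09. The groups did not overlap for 21 of the 91, all lower, beside 2.38% of all genes. None passed the adjusted test, and 71 had an unadjusted p under 0.05, beside 11.2% of all genes with such a p and lower values. SLC34A1 belongs to the same cells, so the direction of this list follows from how the groups were chosen and is a description. The median was -1.16 with sex as a term, -1.42 in females alone, -1.18 without female 3 and -2.03 without male 1. For male 1, the 1 high-ratio male, against the low-ratio males it was -0.83.

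**Figure D2:**
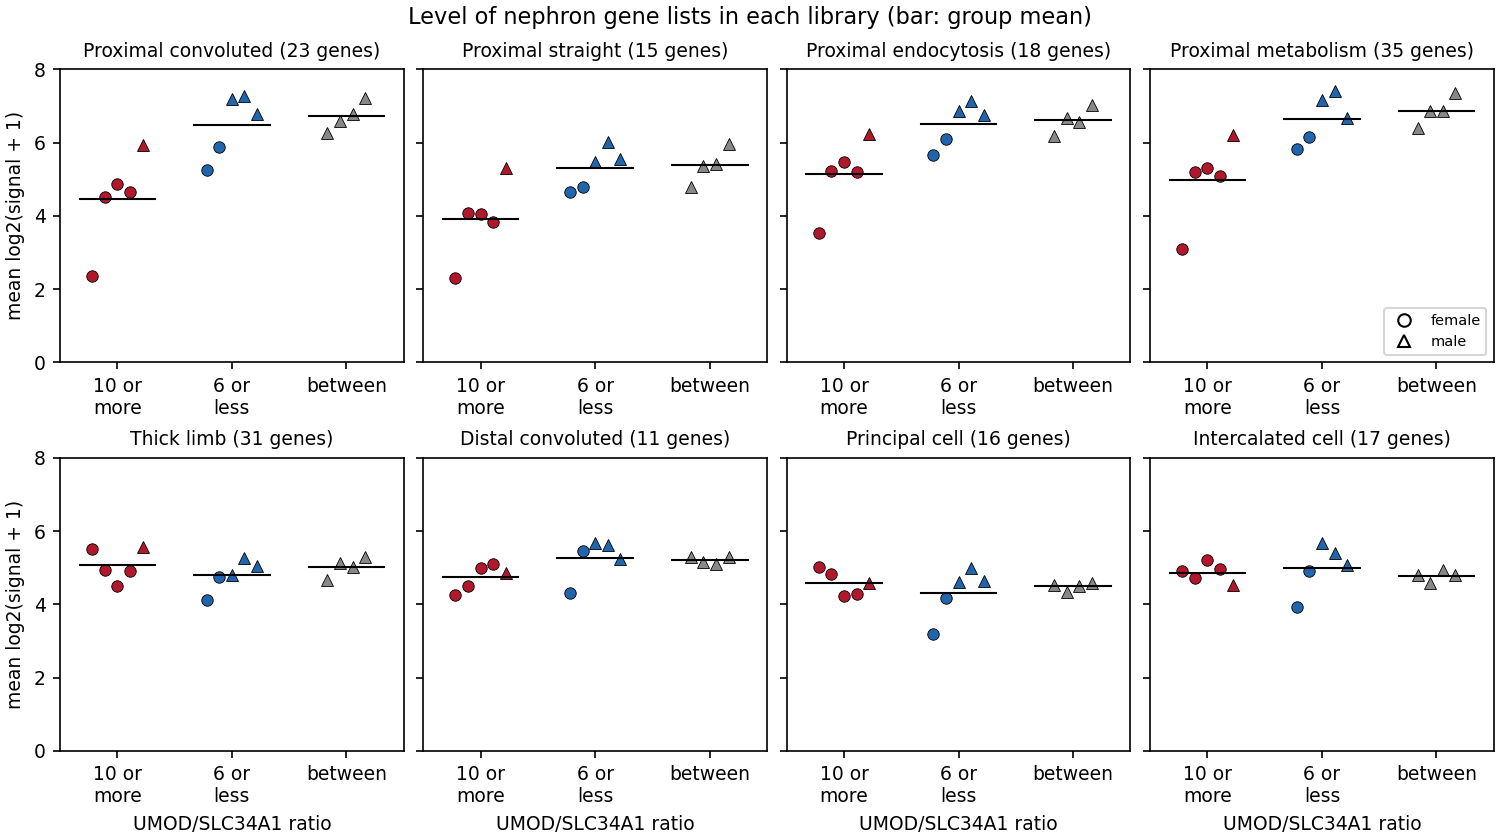
Mean log2(signal + 1) of 8 nephron gene lists (vertical) in each library by ratio group (horizontal; circles female, triangles male, bars group means). The 4 proximal lists lie lowest in female 3 and are higher in male 1 than in the other high-ratio libraries. All 8 lists overlap between the groups, the proximal lists through male 1 alone.

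LRP2 encodes megalin, the endocytic receptor by which proximal cells take up filtered proteins, on NC_018163.2 from 54872200 to 55087351, minus strand. Its signal was 7.98, 41.2, 63.8, 57.9 and 176 in the high-ratio and 111, 121, 227, 294 and 214 in the low-ratio libraries. The 4 high-ratio females lay below every low-ratio library, and male 1 lay above the 2 low-ratio females. The log2 difference was -1.92 (SE 0.62, adjusted p = 0.182), with -1.29 after a sex term and -1.75 in females alone. CUBN, encoding its partner cubilin, had the same order of libraries at the margin, with 279 in male 1 against 222 and 238 in the low-ratio females. Its difference was -2.11, with -1.51 after a sex term and -1.34 without female 3. In the endocytosis and brush border list of 18 tested genes the median was -1.38. PDZK1IP1, a small membrane protein that binds the brush border scaffold PDZK1, was its 1 member without overlap, at 25.2 to 183 against 334 to 537. ANPEP, a brush border aminopeptidase, had a difference of -2.63 with male 1 at 215 above female 6 at 120. The smallest differences in the list were those of CLCN5 and CTNS, an endosomal chloride exchanger and the lysosomal cystine transporter, at -0.09 and -0.20.

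The convoluted tubule list held the largest difference of the proximal lists. SLC22A8, the basolateral transporter OAT3, on NC_018165.2 from 10745444 to 10772203, plus strand, had signals of 0.225, 16.8, 34.5, 29.8 and 47.5 in the high-ratio libraries. In the low-ratio libraries the values were 62.4, 117, 403, 237 and 209, so the groups did not overlap and every low-ratio library exceeded male 1. The difference of -3.40 (SE 0.87, adjusted p = 0.151) became -2.69 with a sex term, -2.80 in females alone and -2.47 without female 3. Its relative SLC22A6, OAT1, had 0.394, 62.4, 84.8, 72.3 and 149 against 179, 197, 474, 357 and 317, also without overlap. Its difference was -2.90, and -1.71 without female 3. Among the 23 tested genes of the convoluted tubule list (median -2.04), SLC17A3 and the urate transporter SLC22A12 likewise did not overlap. SLC5A2, the glucose transporter SGLT2, was listed at 0 in female 3 and had 2.31 to 14.8 in the other high-ratio libraries. It reached 21.0 to 88.1 in 4 low-ratio libraries but only 5.08 in female 6, so its groups overlapped. SLC9A3, the sodium-proton exchanger NHE3, which the thick limb also expresses, differed least in this list at -0.32, and its sign turned to 0.11 with a sex term and 0.23 in females alone. The list named for the straight tubule, of 15 tested genes, had a median of -1.37. Not all of its genes are particular to that segment, SLC5A12 among them. Its members without overlap were the lactate transporter SLC5A12, the GABA and taurine transporter SLC6A13 and the cation exporters SLC47A1 and SLC47A2. SLC5A8, also in this list and at low signal, differed by -0.14 with overlap. SLC47A2 had 26.0, 103, 93.2, 105 and 107 against 182, 147, 210, 219 and 281, so that the 4 high-ratio libraries other than female 3 lay close together.

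Metabolic genes of the proximal tubule contributed 12 of the 21 members without overlap, from 35 tested (median -1.80). RBP4, the plasma retinol carrier, had 1.35, 23.6, 9.37, 9.45 and 52.5 against 97.0, 110, 81.3, 142 and 122. Low-ratio values stayed within a narrow range and high-ratio values spread widely below it (-3.11, SE 0.63, adjusted p = 0.15), and the difference was -2.66 with a sex term and -2.50 without female 3. The gluconeogenic enzymes FBP1 and G6PC did not overlap, with differences of -1.92 and -2.09. PCK1, which starts the same pathway, overlapped because male 1 had 381 and male 8 had 370 (-1.94). The tyrosine-degrading enzymes HPD and HGD and the homocysteine methyltransferases BHMT and BHMT2 were in the same class, with differences of -2.16, -1.64, -2.61 and -1.72. Without female 3 these 4 were -1.38, -1.31, -1.68 and -1.11. HAO2, KHK, FMO1 and PPARA, of oxidative, fructose, monooxygenase and fatty acid metabolism, were also without overlap, with smaller differences for KHK (-1.17) and PPARA (-0.59). GPX3, the glutathione peroxidase that the proximal tubule secretes into plasma, was singled out after its values were seen. Its signal was 35.6, 628, 1191, 1283 and 1645 against 2715, 3483, 7265, 9179 and 5655, without overlap. The difference was -3.18, with -2.58 after a sex term and -2.19 without female 3.

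**Figure D3:**
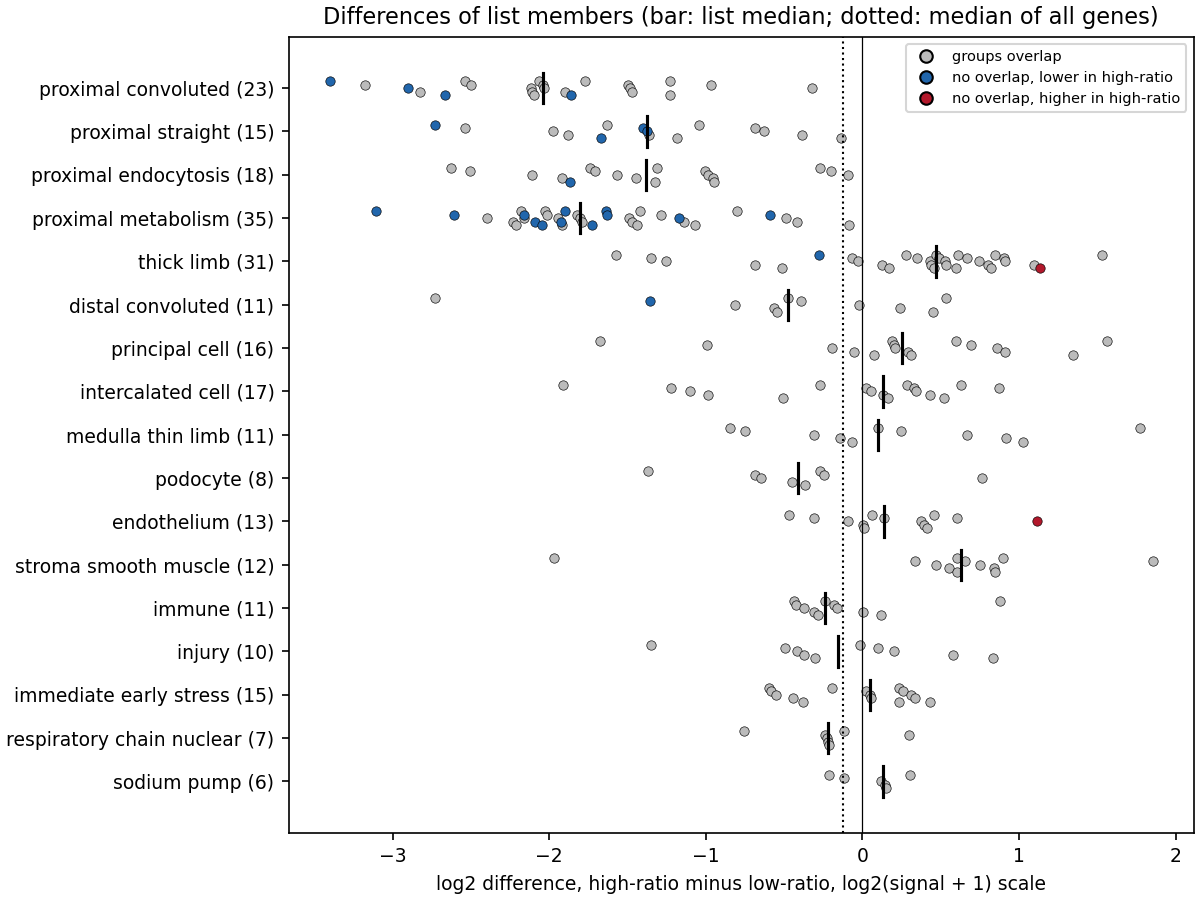
Log2 difference, high-ratio minus low-ratio libraries, on the log2(signal + 1) scale (horizontal) of each tested member of 17 gene lists (vertical, number tested in parentheses), with bars at list medians and a dotted line at the median of all genes. Proximal members all lie at or below -0.09, and thick limb members spread on both sides of 0 around a median of 0.47.

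Thick limb genes other than UMOD parted the libraries less. Of 31 tested members of 34 listed, 23 had higher and 8 lower values in the high-ratio libraries, whereas 64.6% of all genes had lower values. The list median was 0.47, or 0.60 relative to all genes. The groups overlapped in 29. IRX2, a homeobox factor, was the 1 member higher without overlap, beside 0.439% of all genes. ESRRG, an estrogen-related receptor, was the 1 lower, at 41.5 to 51.2 against 51.3 to 62.8, beside 2.38% of all genes. The median was 0.66 with sex as a term, 0.85 in females alone, 0.34 without female 3 and 0.32 without male 1. Relative to the median of all genes these were 0.63, 0.78, 0.50 and 0.51. Without both libraries the list median came to 0.10, where the median of all genes was -0.26. On these genes the high-ratio libraries were not all richer in thick limb RNA than the low-ratio libraries, so the groups are named by their ratio.

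SLC12A1, the salt cotransporter that defines the segment (NC_018158.2 from 22574993 to 22676154, plus strand), had 276, 178, 92.4, 170 and 346 in the high-ratio libraries. The low-ratio libraries had 83.7, 101, 91.5, 292 and 185. Female 5 lay between the low-ratio females, and low-ratio male 7 exceeded 4 of the 5 high-ratio libraries. The difference was 0.53 (SE 0.41, adjusted p = 0.636), with 0.91 after a sex term. IRX2 (NC_018157.2 from 2577250 to 2582816, minus strand) had 31.0, 29.5, 14.8, 22.9 and 40.2 against 11.1, 12.6, 7.95, 13.9 and 12.4. All high-ratio values lay above all low-ratio values, female 5 by a small margin over male 7 (1.14, SE 0.26, adjusted p = 0.15), and the difference was 1.24 with a sex term. CLDN19, a claudin of the magnesium and calcium pathway between thick limb cells, had 89.1, 35.2, 14.3, 17.7 and 40.3 against 8.91, 9.69, 9.0, 10.8 and 14.5. Its groups overlapped by female 5 and male 8 alone (1.53, SE 0.41, adjusted p = 0.156), and the difference was 1.65 with a sex term. CLDN16, with which it forms that pathway, differed by 0.49, and by 1.16 with a sex term and 1.34 in females alone. Smaller differences were those of CLDN10, of the sodium-selective pathway, at 0.17, and CASR, the calcium-sensing receptor, at 0.13. Further genes of this list differed by 1.10 (PTGER3, a prostaglandin receptor) and 0.91 (SLC5A3, an inositol transporter). The lowest differences of the list were those of ENOX1 at -1.57 (SE 0.40, adjusted p = 0.151), SPP1, osteopontin, at -1.35 (SE 0.93) and TMEM52B at -1.26, all with overlap. These claudins, CASR, PTGER3, SLC5A3, ENOX1, SPP1 and TMEM52B were chosen after their values were seen. MAL and DEFB1, named by level, had differences of 0.61 and 0.47 with overlap.

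In the distal convoluted tubule list, 8 of 11 tested members had lower and 3 higher values in the high-ratio libraries, beside 64.6% of all genes lower. SLC12A3, the thiazide-sensitive cotransporter, had 2.54, 20.5, 60.7, 90.6 and 59.1 in the high-ratio against 36.0, 247, 498, 335 and 217 in the low-ratio libraries. Female 6 was the 1 low-ratio library inside the high-ratio range (-2.73, SE 0.88, adjusted p = 0.181), and the difference was -2.11 with a sex term and -1.90 in females alone. TRPM6, the magnesium channel of this segment, did not overlap, with 0.388 to 2.36 against 2.54 to 8.44 (-1.35). Its gap was narrow and at low signal, with a high-ratio mean of 1.37, and 2.38% of all genes were lower without overlap. The other 9 tested members overlapped, among them CALB1 and HSD11B2 with differences of -0.56 and -0.48, which were 0.47 and 0.18 in females alone, and WNK4 with 0.45. Over the 11 tested members the median was -0.48, with -0.04 after a sex term and 0.18 in females alone.

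Collecting duct genes overlapped between the groups in all 33 tested members. Most genes did so, as 2.38% of all genes were lower and 0.439% higher without overlap. AQP2 had 376, 242, 155, 131 and 202 against 45.2, 118, 141, 345 and 178. The highest value was in female 3 and the lowest in female 6, while low-ratio male 7 exceeded 4 high-ratio libraries (0.60, SE 0.46, adjusted p = 0.638). Within the females every high-ratio value exceeded both low-ratio values (1.49). For male 1, the 1 high-ratio male, against the low-ratio males the difference was -0.02. The 16 tested principal cell genes had a median of 0.25 and, in females alone, 1.06; AQP3, a basolateral water channel, was also among the 7 of them higher without overlap in females, where 7.62% of all genes were. SCNN1A, of the epithelial sodium channel, differed by 0.31 and the transcription factor TFCP2L1 by -0.19 (0.05 under upper quartile scaling). The 17 intercalated cell genes had a median of 0.13, with 0.67 in females and -0.47 for male 1 against the low-ratio males. SLC4A1, the anion exchanger of acid-secreting cells, differed by 0.28, AQP6 by 0.52 and ATP6V1B1, a proton pump subunit, by -0.27. SLC26A4, pendrin of base-secreting cells, was singled out after its values were seen. It was listed at 0 in female 3 and had 0.691, 8.78, 9.56 and 0.527 in the other high-ratio libraries against 2.76, 12.5, 11.9, 19.2 and 14.1 (-1.91).

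**Figure D4:**
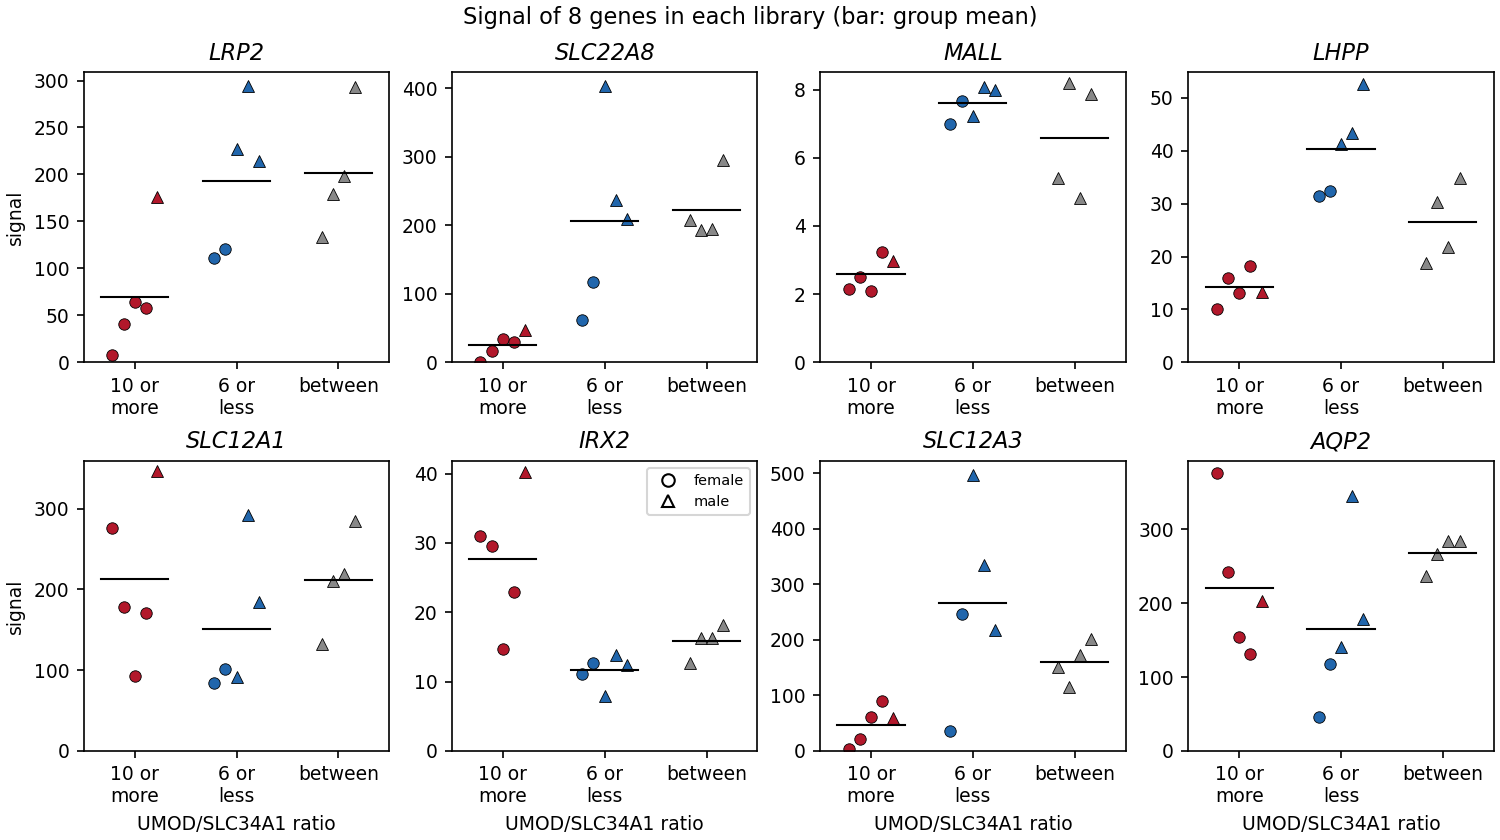
Signal (vertical, linear axis from 0) of 8 genes in each library by ratio group (horizontal; circles female, triangles male, bars group means). SLC22A8, MALL, LHPP and IRX2 do not overlap between the high-ratio and low-ratio libraries, whereas LRP2, SLC12A1, SLC12A3 and AQP2 do.

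Outside the nephron lists, the 5 genes with the smallest p in each direction did not overlap between the groups, though none passed the test. MALL, a membrane raft protein related to MAL, had 2.14, 2.51, 2.08, 3.23 and 2.96 against 7.00, 7.68, 7.23, 8.08 and 7.99. Each group kept within a narrow range, female 3 and male 1 included (-1.27, SE 0.19, adjusted p = 0.108). LHPP, a phosphatase that acts on phospholysine and phosphohistidine, had 10.1, 16.0, 13.1, 18.2 and 13.3 against 31.5, 32.3, 41.4, 43.5 and 52.7 (-1.44, SE 0.21, adjusted p = 0.108). SECTM1 (-1.89), PRDX6, a peroxiredoxin (-1.36), and APOM, a carrier protein of lipoproteins (-1.79), completed the lower genes. In the higher direction LOC108587551, described in the deposited tables as uncharacterized, had 112, 94.9, 41.4, 54.7 and 49.8 against 24.6, 22.7, 15.7, 18.6 and 24.5 (1.60, SE 0.28, adjusted p = 0.15). It lies on NC_018160.2 from 38835794 to 38838736, minus strand. CRACR2B, a regulator of calcium entry (1.08), ID1 and HES1, transcriptional repressors (0.92 and 0.84), and ESAM, an endothelial adhesion molecule of which 1 of 2 transcripts was in both tables (1.12), were the others. With sex as a term these 10 differences ranged in the same directions, from 0.79 for HES1 to 1.46 for LOC108587551 and from -1.22 for MALL to -1.57 for SECTM1. HRG, a plasma glycoprotein singled out after its values were seen, had 203, 55.9, 87.3, 141 and 492 against 32.5, 34.6, 18.2, 24.8 and 62.0 (2.18), overlapping through female 4 and male 8.

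Within the table of females, 4 high-ratio libraries stood against 2 low-ratio libraries. Limma called 0 of 9138 genes there (0%), with 748 at an unadjusted p under 0.05. The females were grouped by the same ratio, so the direction of proximal and thick limb genes here also follows from how the groups were chosen. Proximal genes were lower as a list, and 63 of 90 tested were lower without overlap, beside 9.89% of all genes. Of 31 thick limb genes 8 were higher and 2 lower without overlap, beside 7.62% of all genes for the higher direction. Over the whole female table of 12856 tested genes, including those the males' part lacked, 64 of 93 proximal genes were lower without overlap, beside 8.26%, and 7 of 32 thick limb genes higher, beside 7.58%.

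Some other choices of libraries and terms gave calls, and the direction of proximal and thick limb genes in them again follows from how the groups were chosen. Without male 1, limma called 72 genes lower (0.788% of 9135) and 3 higher. Of 91 proximal genes 10 fell, among them RBP4, SLC4A4 and HGD, and 0 of 31 thick limb genes passed in either direction. Leaving out female 3 alone gave 0 calls, as did the sex term alone (936 and 1236 genes at an unadjusted p under 0.05). With both changes together, 79 genes were called lower (0.861% of 9176) and 7 higher. Of 91 proximal genes 21 fell, among them CUBN, SLC22A6, SLC22A8 and HNF4A, and again no thick limb gene passed. With both libraries left out 4 genes were called. As a slope on the log2 ratio over all 14 libraries, 835 of 9383 genes (8.9%) passed, 592 of them falling and 243 rising. Among these, 72 of 93 proximal genes fell, and 9 of 31 thick limb genes rose and 1 fell. The ratio holds SLC34A1 and UMOD, so this slope describes the libraries and supports nothing about these lists. The count of 835 genes came to 0 without female 3, so it rests on this library.

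Markers of other cells were set beside these results. The 8 tested podocyte genes had a median difference of -0.41, and their summed signal ranged from 388.1 to 987.2 in the high-ratio and from 627.6 to 824.8 in the low-ratio libraries. PODXL, of the podocyte surface, had its lowest values of 50.5 and 70.8 in female 3 and male 1. Of 12 stromal and smooth muscle genes 11 had higher values in the high-ratio libraries, whereas 64.6% of all genes had lower values. Their median was 0.63, with summed signals of 307.3 to 1065 against 301.8 to 533.3. DCN, a matrix proteoglycan, had 274, 123, 32.7, 84.8 and 161 against 64.0, 69.2, 34.2, 73.8 and 71.3, overlapping through female 5. Endothelial (13 genes), immune (11) and injury (10) lists had medians of 0.14, -0.24 and -0.16 with summed signals that overlapped. The 4 blood genes had a median of -1.30, with summed signals of 48.9 to 359.6 against 64.7 to 785.2; HBB, a haemoglobin chain, had 233 in female 3 and at most 42.7 in the other high-ratio libraries. In the medulla and thin limb list of 11 genes the median was 0.10. AQP1, a water channel shared by proximal tubule and thin limb, differed by -0.85. Stress and immediate early genes (15) had a median of 0.05, nuclear respiratory chain genes (7) of -0.22 and sodium pump genes (6) of 0.13. Under upper quartile scaling the injury and respiratory chain medians turned to 0.04 and 0.02. The part of these cells, of blood and of the missing podocyte signal in the differences above was not tested.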

How the data were processed

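RNA from the biopsies was sequenced as stranded mRNA libraries, per the labels' protocols. Females and males have a table each, in which the authors deposited signal for every transcript, judged from the values to be scaled between libraries and offset by 1. Partek is named in the submitters' processing notes; for the aligner, the scaling and the build, the entry is: not given in the sources used here. The male table was held in part: 17119 complete rows, all among the 26644 transcripts of the female table, and 2263 of 9818 shared genes had only part of their transcripts. The offset was subtracted and transcripts were summed per gene by name. Where 5 of the 10 libraries reached a signal of 1, the gene was tested with limma 3.58.1 (R 4.3.3, trended variance) on log2(signal + 1), a scale that understates changes of low genes; the threshold was an adjusted p of 0.05. The steps were tested on simulated data. Each library is 1 animal. Depth is unknown, so no counting intervals are given.

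The ratio groups and gene lists were chosen with earlier results of these data known. Named genes are UMOD, SLC34A1, LRP2 and AQP2, the 5 with the smallest p in each direction since fewer than 3 passed, and the 3 members of highest level in each list; fixed cell type markers, list members without overlap and genes said to be chosen after their values were seen were added. Alternatives covered pseudocount, filter, scaling, trend, sex, a slope on the ratio and each library left out. Values of some genes that the rules name are not reported here.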

Additional observations from a re-analysis of the deposited data

Results flagged for a closer look

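In 5 of 50 sets of 5 libraries (the levels of each gene list and the library measures, in each group), 1 library stood apart from the other 4 by Dixon's test at the 95% level; chance gives about 1 in 20. The blood genes had a mean log2(signal + 1) of 4.93 in high-ratio female 3, and the next value in that group was 3.32. Immediate early and stress genes had 5.28 in high-ratio male 1, against a next value of 4.09. Sodium pump genes had 4.37 in low-ratio female 6, against a next value of 5.05. The same library had 8156 genes with a signal of at least 1, against a next value of 8882, and 299 genes at 0, against a next value of 61.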

How the results depend on the processing

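The count of 0 called genes was the same with pseudocounts of 0.1 and 5, both other filters, both other scalings, no trend, a sex term and the females alone. It was 42 for the males alone, where male 1 is the lone high-ratio library and is assumed to vary like the others, and 835 for the slope on the ratio. Among alternatives chosen after seeing the data it was 86 without female 3 with a sex term, 941 for the slope with a sex term and 4 without female 3 and male 1. Leaving out each library in turn gave 0 to 75 calls, 75 without male 1. The 41 genes higher without overlap became 22 with a signal minimum of 10, 148 and 201 under median and upper quartile scaling, 696 in females alone and 103 without female 3 and male 1. The 222 lower genes became 904 in females alone and 911 without female 3 and male 1. With each library left out they numbered 46 to 148 higher, most without female 5, and 241 to 701 lower, most without male 1 (701) and female 6 (586). Fewer libraries make such parting easier by construction; for the other shifts the cause was not tested. Of 105 named genes 74 kept their sign under every alternative in which they were tested (93 of the 105 were with a signal minimum of 10) and 31 did not, and none of those passed the test under an alternative in which its sign differed. No paired analysis was possible because each library is 1 animal and the groups hold different animals. The sex term rests on 1 male against 4 females in the high-ratio group, the deposited scale may differ between the sexes, and depth is unknown, so differences of genes near 0 are imprecise.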
